A study of Carex littledalei with 18 samples.

Results

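The 100 most abundant assembled transcripts in leaves of Kobresia littledalei (also Carex littledalei), a sedge of alpine grassland, were followed through 48 h at -5 °C. A gene here is a cluster of assembled transcripts, and the members were chosen by their level in the authors' table scaled for gene length and library composition. The mean of each of 214531 genes was taken over 17 of the 18 columns, and the 100 genes with the highest mean were kept, which is 0.0466% of the table. The column given as 4 h replicate 1 was left out of that mean because it is identical to the one given as 0 h replicate 1. The unit is written below as scaled TPM: TPM, a gene's share of a library per unit of length, divided by a TMM (trimmed mean of M-values) factor, which corrects a library for its composition; the unit is not stated and was worked out from the column sums. Being a per-length unit, it allows levels to be compared between genes. No gene name comes with an identifier of the files, so members are called by their rank in that mean, from rank 1 to rank 100, no role can be given to any of them, and the leaf label could not be checked against marker genes.

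Leaves of wild plants from Tibetan field sites, all kept in pots in a 25 °C greenhouse for 7 days, were collected at 6 times, after 0, 0.5, 4, 12, 24 and 48 h at -5 °C, with 3 libraries for each. The 0 h leaves were the untreated ones. Each pot served 1 time, so effects of time and of pot cannot be told apart. The samples include none from plants held warm over the same hours, so cold and time passed cannot be told apart either. The labels do not say whether the libraries of a time came from separate plants, so the p-values rest on differences among libraries of 1 pot, which may be technical. Library totals were 18895399 to 32345479 counts. The identical columns hold 1 set of values under 2 times. Both were therefore left out of every comparison of times, which used 16 libraries: 2 each for 0 h and 4 h, and 3 each for the other times.

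In leaves, a small number of genes usually supplies a large part of the messenger RNA, among them the nuclear genes for the small subunit of Rubisco, which fixes carbon dioxide, and for the chlorophyll-binding proteins that harvest light. Cold is known in plants to lower many photosynthesis transcripts and to raise those of dehydrins, sugar metabolism and other protective proteins. This is general background, and nothing in the files ties it to a member. In whole leaves, fewer cells of a type and less RNA per cell cannot be told apart.

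The 100 genes held 37.1% of the mean total of all 214531 genes. Rank 1 alone held 6.72%, rank 2 held 4.82%, rank 3 held 4.39% and rank 4 held 2.35%. These first 4 genes made up 49.2% of what the 100 held together, the first 10 made up 60.1%, and 5 members were enough to reach 50%. Rank 1 had a mean 80.9 times that of rank 100. At the edge of the list the levels ran on without a gap: rank 100 had a mean of 855 scaled TPM, and the first gene outside it had 835.

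Per library, the 100 genes held between 28.5% and 49.6% of all scaled TPM, with a median of 36.7%. By time, the share was 41.1% and 35.8% at 0 h, 29.2%, 36.7% and 39.5% at 0.5 h, 42.1% and 39.2% at 4 h, 36.6%, 39.8% and 28.5% at 12 h, 49.6%, 34.6% and 29.6% at 24 h, and 35.7%, 30.5% and 36.8% at 48 h. The lowest and the highest library of the study differed from libraries of their own time by more than the times differed among themselves. The means by time lay between 34.3% ± 3.3 at 48 h (SD, n = 3) and 40.6% ± 2.1 at 4 h (SD, n = 2), and at 24 h the SD reached 10.4 percentage points. No difference between times was detected. A permutation test over the 16 libraries (two-sided by construction, 1e+05 resamples) gave p = 0.841, or 0.875 adjusted over the 8 measures tested. Besides shares, these include a count, the number of the 100 genes among a library's own 100 highest. That count ran from 58 to 81, with a permutation p of 0.102, or 0.371 adjusted.

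The 49.6% came from 24 h replicate 1, where rank 4 alone made up 13.3% of the library. With rank 4 taken out of the sum, the share ran from 25.1% to 41.3% and the permutation p was 0.335. Counted as estimated reads rather than per length, the same 100 genes held 16.1% to 31.2% of a library, with a permutation p of 0.781. The smallest of the 8 p-values belonged to the share of the first 3 genes, which averaged 18.3% ± 2.9 at 0 h (SD, n = 2), 13.1% ± 1.0 at 0.5 h, 21.1% ± 0.86 at 4 h (SD, n = 2), 14.1% ± 5.6 at 12 h, 13.5% ± 2.5 at 24 h and 17.4% ± 1.4 at 48 h (SD, n = 3 at the other times). Its permutation p was 0.0892, or 0.371 after adjustment.

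**Figure D1:**
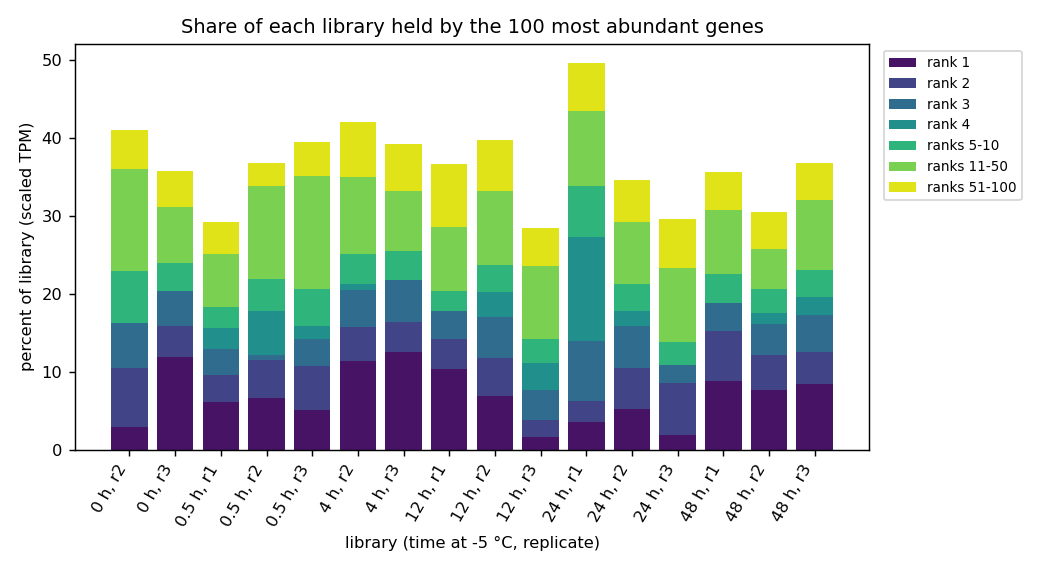
Share of each library's scaled TPM (%, y axis) held by the 100 genes, as 1 stacked bar per library in order of time at -5 °C (x axis), with ranks 1 to 4 singly and the rest in 3 ranges of rank. The libraries of one time spread as widely as the times do, with 24 h replicate 1 at 49.6% and 12 h replicate 3 at 28.5%.

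Rank 1 was the most abundant gene, with a mean of 69220 scaled TPM over the 17 columns. It had 35418 and 106090 scaled TPM at 0 h, 46696, 54651 and 63389 at 0.5 h, 122945 and 130176 at 4 h, 123506, 89998 and 12459 at 12 h, 50017, 54683 and 16442 at 24 h, and 94198, 60499 and 94763 at 48 h. Both 4 h libraries lay above every library of 0, 0.5, 24 and 48 h, while the 12 h libraries spanned nearly the whole range. The set of values deposited under both 0 h and 4 h was at 20810 scaled TPM, below all 4 libraries of those times. For 48 h against 0 h its log2 fold change was 0.45, with an SE of 0.95 and an adjusted p of 0.945 (edgeR's quasi-likelihood test, Benjamini-Hochberg adjusted over all 68030 genes tested). For 24 h against 12 h the value was -1.10, with an edgeR adjusted p of 1.

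Rank 2 was second in abundance, at 90469 and 35568 scaled TPM at 0 h, 27281, 41225 and 70339 at 0.5 h, 47499 and 39236 at 4 h, 44933, 64641 and 17399 at 12 h, 36613, 55662 and 58479 at 24 h, and 67681, 35017 and 46191 at 48 h. The 2 libraries at 0 h differed by more than any pair of time means. Its means by time lay between 42325 ± 23729 at 12 h (SD, n = 3) and 63019 ± 38821 at 0 h (SD, n = 2). The edgeR test over all times gave an adjusted p of 1.

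Rank 3 had 70538 and 39934 scaled TPM at 0 h, 25809, 5267 and 43994 at 0.5 h, 51676 and 55152 at 4 h, 43594, 67827 and 30679 at 12 h, 108975, 56974 and 20804 at 24 h, and 39067, 31319 and 54620 at 48 h. Its highest library and its second lowest were both taken at 24 h, and its lowest was 0.5 h replicate 2. The edgeR test over all times gave an adjusted p of 0.969.

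Rank 4 differed from the first 3 in being nearly missing from some libraries and among the most abundant genes in others. It had 6.86 and 88.9 scaled TPM at 0 h, 21045, 46459 and 19991 at 0.5 h, 8266 and 47.4 at 4 h, 49.0, 43047 and 27190 at 12 h, 186841, 21312 and 10.6 at 24 h, and 7.79, 11225 and 26322 at 48 h. In all, 10 libraries had at least 1000 scaled TPM and 6 had under 100, with low and high libraries side by side at 4, 12, 24 and 48 h. All 3 libraries at 0.5 h were high and both at 0 h were low, and the set of values deposited under both 0 h and 4 h was low as well, at 6.18 scaled TPM. The estimated reads behind these values ran from 21.0 to 807931. The fitted log2 fold change was 9.30 at 0.5 h against 0 h (SE 3.85, edgeR adjusted p = 0.808) and 8.07 at 48 h against 0 h (SE 3.65, edgeR adjusted p = 0.469).

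Ranks 5 to 10 had means of 5395 to 9100 scaled TPM, and none was called in any comparison. Rank 5 averaged 16201 ± 12309 scaled TPM at 0 h (SD, n = 2) and 6705 to 10328 at the later times. Rank 7 likewise averaged 14573 ± 11575 at 0 h (SD, n = 2) and 4216 to 8636 later, and in both genes replicate 2 was the higher of the 0 h pair. Rank 9 averaged 11318 ± 14149 scaled TPM at 24 h (SD, n = 3), where replicate 1 alone had 27596, against 3782 ± 2349 at 0 h (SD, n = 2). The time means of rank 6 ran from 5133 to 9673 scaled TPM, those of rank 8 from 5344 to 8230 and those of rank 10 from 2640 to 7048. Over all times the edgeR adjusted p of these 6 genes was 0.724 or more.

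**Figure D2:**
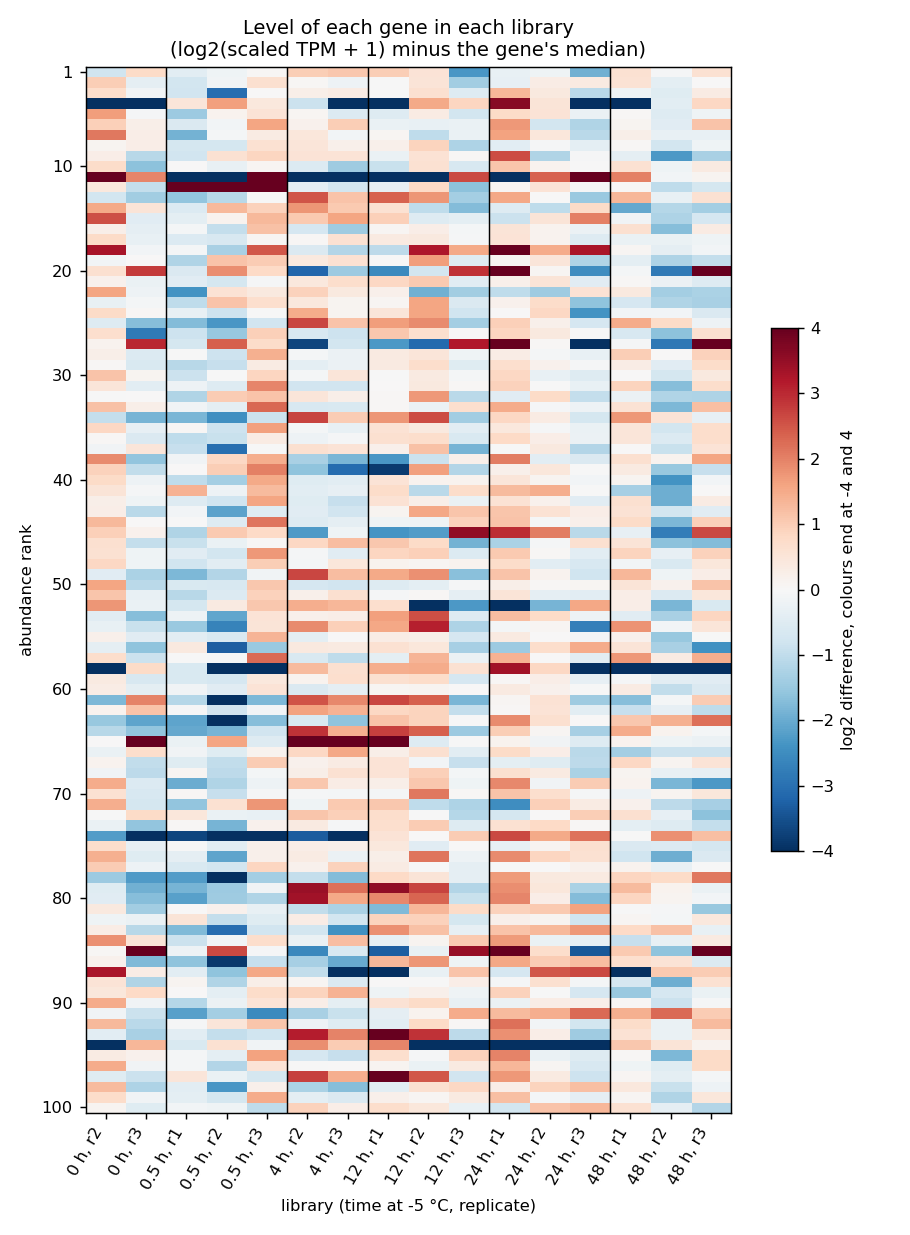
Level of each of the 100 genes (1 line per gene, in order of rank) in each of the 16 libraries (columns, ordered by time at -5 °C), as log2 of scaled TPM + 1 minus the gene's median over the libraries, with colours ending at -4 and 4. Ranks 4, 11, 58 and 65 switch between strong colours within a time, and rank 12 stands out in the 3 libraries at 0.5 h.

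Membership of the list was steady for some genes and borne by a few libraries for others. Of the 100, 23 were among the 100 highest genes of every one of the 16 libraries, 72 were so in at least 8 libraries, and 28 in fewer than 8. Rank 12 was among them in 3 libraries, ranks 65 and 93 in 4 and rank 97 in 2. Leaving out a gene's own highest library put 13 members below rank 100, all of them at ranks 80 to 100. Leaving out a gene's own highest time put 20 below it, among them rank 12, which then stood at rank 949, rank 74 at rank 145 and rank 91 at rank 121.

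The list also depends on the measure. A mean over the 16 libraries used for tests kept 98 of the 100, and a median over 17 columns kept 84. A mean of CPM (counts scaled to library size and not divided by length) kept 49. The lengths themselves are not in the files, but the ratio of reads to scaled TPM gives a relative length. For the 99 members with a value its median was 0.327, for 97 of the next 100 genes by mean it was 0.631, and for the 26208 tested genes with a value, those with at least 10 reads in every library, it was 1.006. The scale is set to a median of 1 over those tested genes in each library. Of the 99 members, 83 were below 1 on it, as were 13049 of the 26208 tested genes. The members were chosen by a per-length level, so their lengths are not independent of that choice.

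The 100 genes came from 91 components, the connected parts of the assembly, and 6 components held 15 of them. The pairs were ranks 62 and 66, 54 and 97, 23 and 32, and 17 and 77, a group of 3 was made up of ranks 49, 64 and 79, and a group of 4 of ranks 21, 59, 68 and 71. Genes of 1 component can be copies, alleles or fragments of the same plant gene, and reads can be shared between them, so their separate levels are uncertain.

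Every member passed the filter on low counts. A member can enter the list through 1 time at which it is very high, so a change over time is not independent of how the members were chosen, and the counts below are given as descriptions. Over all 6 times, 3 of the 100 members were called at an adjusted p under 0.05 by edgeR's quasi-likelihood test, against 0.717% of the 68030 genes tested. These were ranks 12, 74 and 91. All 3 are among the 20 members that leave the list without their own highest time, and 0 of the other 80 were called. At an unadjusted p under 0.05 there were 21 members, against 12.2% of the genes tested. DESeq2 called 18 members over all times, against 5.11% of the genes tested, and limma on log2 of scaled TPM + 1 called 5, against 1.39%. edgeR with no filter on low counts called 42, against 7.58% of 202727 genes. Each of these calls included the same 3 genes.

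Rank 12 (TRINITY_DN211982_c6_g1, given by identifier after its values were seen) was high at 0.5 h and at no other time. It had 192 and 72.9 scaled TPM at 0 h, 6688, 32049 and 32938 at 0.5 h, 110 and 85.2 at 4 h, 113, 247 and 45.0 at 12 h, 150, 209 and 140 at 24 h, and 147, 69.7 and 86.6 at 48 h. The lowest library at 0.5 h lay far above the highest library of any other time, and the other 13 libraries overlapped freely across times. The set of values deposited under both 0 h and 4 h was at 96.5 scaled TPM, among those 13.

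The means of rank 12 were 23892 ± 14905 scaled TPM at 0.5 h (SD, n = 3), against 132 ± 84 at 0 h (SD, n = 2). In the 0.5 h libraries the gene made up 0.866%, 3.86% and 2.63% of all scaled TPM, and in the others at most 0.020%. Over all times its edgeR adjusted p was 0.0001125. In the single contrasts the log2 fold change was 7.54 at 0.5 h against 0 h (SE 1.16, edgeR adjusted p = 0.0750) and -7.74 at 4 h against 0.5 h (SE 1.17, edgeR adjusted p = 0.161), neither of which passed the threshold. DESeq2, limma, library size alone without TMM, and fits that kept the identical values at 0 h did call the contrast at 0.5 h.

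Rank 74 (TRINITY_DN195255_c1_g2, also given after its values were seen) was high from 12 h on. It had 158 and 41.6 scaled TPM at 0 h, 58.009, 14.2 and 39.7 at 0.5 h, 74.2 and 29.9 at 4 h, 1105, 763 and 1509 at 12 h, 4731, 2127 and 3398 at 24 h, and 738, 2669 and 1735 at 48 h. Every library from 12 h on lay above every earlier library, and the 12 and 48 h libraries overlapped. Over all times its edgeR adjusted p was 0.00154. The log2 fold change was 3.80 at 12 h (SE 0.87, edgeR adjusted p = 0.490), 5.40 at 24 h (SE 0.95, edgeR adjusted p = 0.0932) and 4.31 at 48 h (SE 0.90, edgeR adjusted p = 0.113), each against 0 h.

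Rank 91 was low at 0.5 and 4 h and high at 24 and 48 h. It had 501 and 306 scaled TPM at 0 h, 121, 216 and 93.6 at 0.5 h, 223 and 299 at 4 h, 426, 603 and 1554 at 12 h, 1325, 1496 and 2626 at 24 h, and 1489, 2640 and 1103 at 48 h. All libraries of 0.5 and 4 h lay below both at 0 h, although 4 h replicate 3 came close to 0 h replicate 3, and all of 24 and 48 h lay above. The set of values deposited under both 0 h and 4 h was at 645 scaled TPM, above both 0 h libraries, so its place at 4 h would end this order. Over all times its edgeR adjusted p was 0.0297, and at 48 h against 0 h the log2 fold change was 1.77 (SE 0.67, edgeR adjusted p = 0.394). The call over all times was made in 4 of the 16 fits that left out 1 library, those without 12 h replicate 1, 2 or 3 or without 24 h replicate 1, and without 4 h replicate 2 the edgeR adjusted p was 0.157. Ranks 12 and 74 were called in all 16.

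The next members by adjusted p over all times were rank 63 at 0.0736, rank 65 at 0.0853 and rank 78 at 0.0946 (edgeR). Ranks 63 and 78, from different components, varied together from library to library, with a Pearson correlation of 0.991 over the 16 libraries on the log2 scale. At 0 h rank 63 averaged 275 ± 81 scaled TPM (SD, n = 2), and at 12, 24 and 48 h it averaged 1589 ± 592, 1993 ± 1371 and 2975 ± 1237 (SD, n = 3 each).

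**Figure D3:**
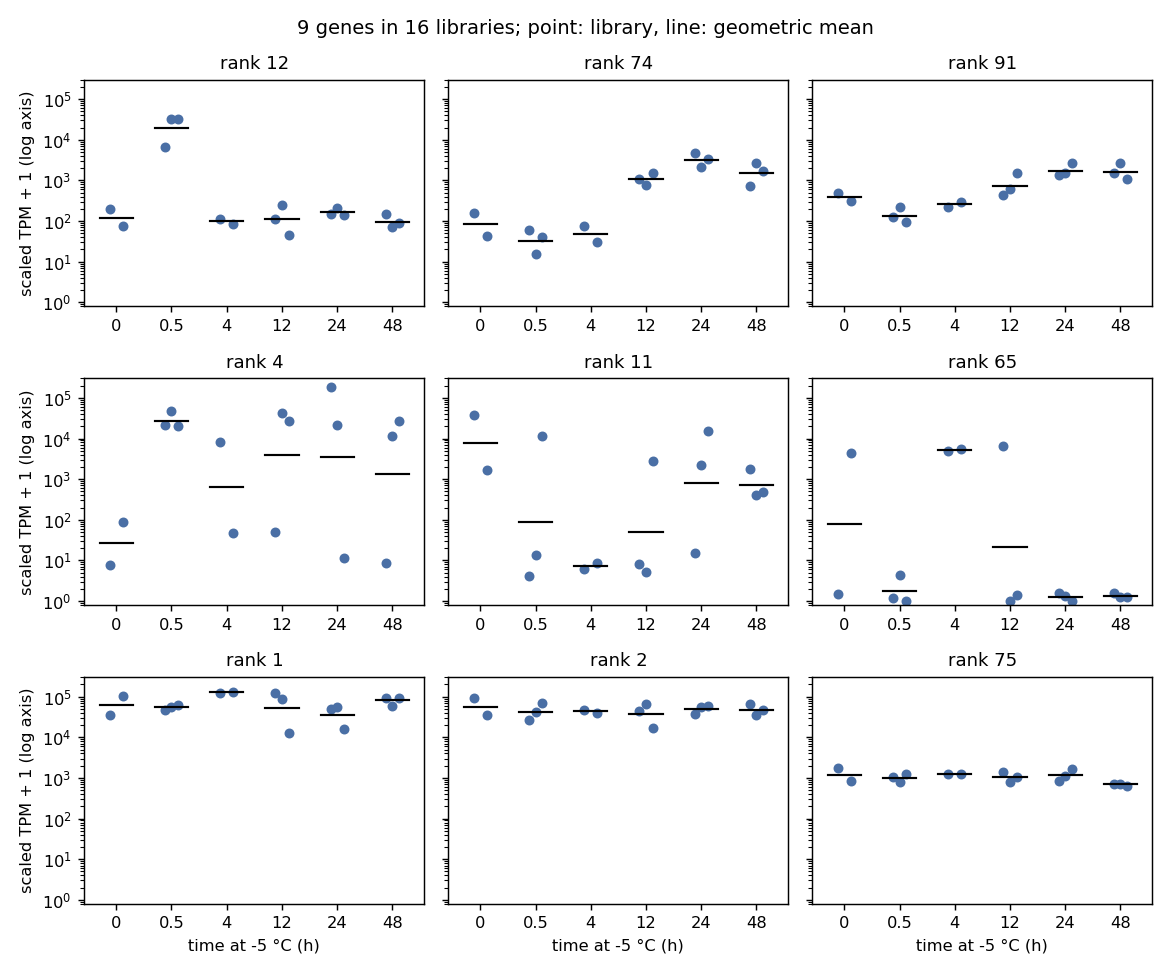
Scaled TPM + 1 on a log axis (y) by time at -5 °C (x) for 9 members, 1 panel each, with 1 point per library and a bar at the geometric mean of each time. Rank 12 is high in the 3 libraries at 0.5 h, ranks 74 and 91 are high late, and rank 4 has libraries under 100 and over 1000 at the same times.

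No member was called in any contrast of single times with edgeR. Of the 68030 genes, 0.00588%, 0%, 0.022%, 0.0323% and 0.0779% were called against 0 h after 0.5, 4, 12, 24 and 48 h, in that order. It was 0% for 4 h against 0.5 h, 0.0382% for 12 h against 4 h, 0% for 24 h against 12 h and 0.0955% for 48 h against 24 h. A count of 0 members is therefore near what the table as a whole gives. At an unadjusted p under 0.05, the members numbered 6, 13, 15, 9 and 12 in the same 5 contrasts with 0 h, where the shares of all tested genes were 5.98%, 4.95%, 6.58%, 6.78% and 10.3%. For the steps between neighbouring times, from 4 h against 0.5 h to 48 h against 24 h, they numbered 18, 9, 4 and 9, beside 7.71%, 6.04%, 2.97% and 11.4% of all tested genes.

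Other tools called a few members in these contrasts. For these tools the share of all tested genes is given here only over all times, 5.11% with DESeq2 and 1.39% with limma. The counts per contrast have no such share beside them and are not read as a result about the members. Against 0 h, DESeq2 called 2 members at 0.5 h, 1 at 4 h and 5 each at 12, 24 and 48 h. For the 4 neighbouring steps it called 8, 2, 0 and 5. limma called 1 member in each of the contrasts of 0.5, 24 and 48 h with 0 h, 1 for 4 h against 0.5 h, 1 for 12 h against 4 h, and 0 in the others.

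The median change of the members against 0 h was small in both directions. After 0.5, 4, 12, 24 and 48 h their median log2 fold change was -0.19, -0.0033, 0.23, 0.17 and -0.21, in that order, beside 0.099, 0.0078, 0.085, 0.084 and 0.061 over all tested genes. These contrasts share the 0 h libraries. Between neighbouring times the member medians were 0.21 for 4 h against 0.5 h, 0.42 for 12 h against 4 h, 0.079 for 24 h against 12 h and -0.44 for 48 h against 24 h, beside -0.11, 0.092, 0 and -0.021 over all tested genes.

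Counts of members whose libraries do not overlap between 2 times add the direction. At 4 h against 0 h, 29 members had both 4 h libraries above both 0 h libraries, against 17.9% of the genes tested, and 19 had both below, against 16.9%. At 48 h against 0 h, 15 members lay wholly above (14.1% of the genes tested) and 14 wholly below (10.8%). At 0.5 h only 2 lay above (9.39%) and 3 below (8.55%), at 12 h 4 above (8.5%) and 3 below (8.2%), and at 24 h 10 above (9.93%) and 1 below (8.32%), each against 0 h. With 2 libraries on each side, non-overlap is easier to reach at 4 h than at times with 3.

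Among neighbouring times, 30 members lay wholly above at 4 h against 0.5 h (13.3% of the genes tested) and 16 wholly below (12.5%). At 12 h against 4 h, 20 lay above (8.7%) and 10 below (11.6%). At 24 h against 12 h the counts were 2 and 0 (2.26% and 1.97%), and at 48 h against 24 h they were 3 and 7 (9.7% and 6.84%).

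The highest mean of log2(scaled TPM + 1) fell at 4 h for 37 members, at 0 h for 19, at 24 h for 18, at 12 h for 11, at 48 h for 9 and at 0.5 h for 6. Over the tested genes these shares were 20.1%, 15.8%, 14.7%, 11.4%, 21.4% and 16.5%. The lowest mean fell at 0.5 h for 28 members, at 48 h for 26, at 4 h for 25, at 0 h for 10, at 24 h for 6 and at 12 h for 5, beside 14.5%, 15.8%, 19.7%, 23.3%, 14.9% and 11.8% of the tested genes. Times with 2 libraries reach extreme means more readily than those with 3. These counts move with the scaling: on TPM not divided by the TMM factor, the highest mean fell at 0.5 h for 18 members and at 4 h for 33, and the lowest at 0.5 h for 24 and at 4 h for 28.

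By single library, 0 h replicate 2 and 0.5 h replicate 3 were the highest for 18 members each and 12 h replicate 2 for 17, beside 6.23%, 5.11% and 7.43% of the tested genes. The TMM factors recomputed from the scaled signal were 0.837, 0.811 and 0.758 for these 3 libraries, among the lowest of the 16. Dividing by a low factor raises a level. Without the TMM factor they were the highest for 14, 15 and 9 members, and 24 h replicate 3 was so for 10 in place of 3. The lowest library was 0.5 h replicate 2 for 27 members and 48 h replicate 2 for 17. Their TMM factors from the scaled signal were 1.2021 and 1.2737, and without the factor these counts were 21 and 12.

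Replicates of a time differed widely. The pooled SD of log2(scaled TPM + 1) within times had a median of 0.949 over the members, with quartiles at 0.729 and 1.196 and a range of 0.403 to 5.31. For the next 100 genes by mean the median was 0.762, and over the tested genes it was 0.428, where the added 1 shrinks the spread of the many genes with low levels. Fitted on counts, edgeR's biological coefficient of variation had a median of 59.7% over the members and 64.7% over the tested genes. It is a moderated value, each gene's own being drawn towards that of genes of like level, and was not summarised for the next 100 genes. An SD over 1, which is a typical 2-fold departure, was found in 41 members, 28 of the next 100 genes and 4.66% of the tested genes.

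**Figure D4:**
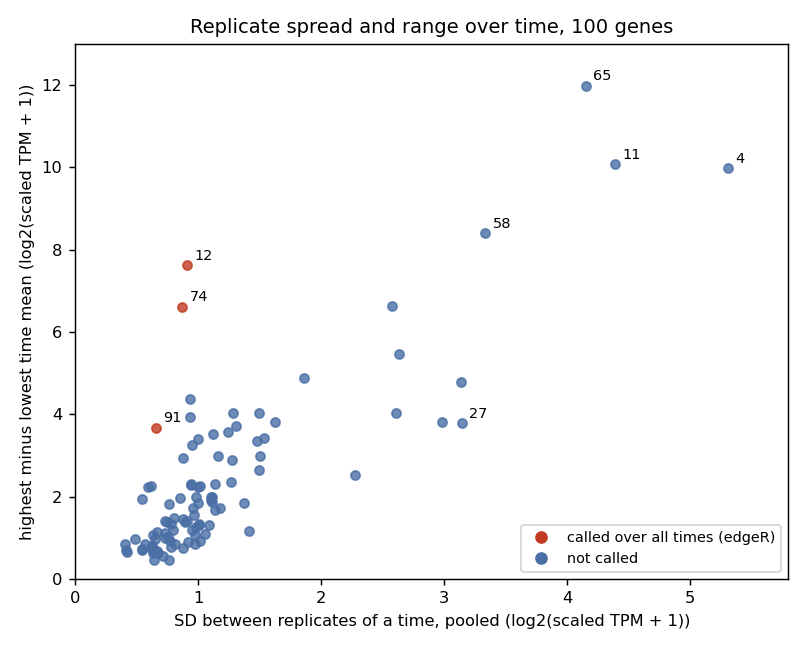
Range of the time means (highest minus lowest, log2 of scaled TPM + 1, y axis) against the pooled SD between replicates of a time (same scale, x axis) for the 100 genes, with the 3 members called over all times in red. Ranks 12, 74 and 91 combine a wide range with an SD below 1, whereas ranks 4, 11, 58 and 65 have wide ranges and SDs above 3.

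The share of a member's variance that lies between times had a median of 34.0%, beside 24.0% for the next 100 genes and 35.5% for the tested genes. With 6 times among 16 libraries, 33.3% of the degrees of freedom lie between times. The share passed 50% in 26 members, 26 of the next 100 genes and 25.1% of the tested genes. In 85 members the largest ratio between 2 replicates of a time exceeded, on the log2 scale, the range of the time means, as it did in 86.8% of the tested genes.

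The ratio of the highest to the lowest replicate, with 1 added to each level, shows where the spread lies. Its median over the members after 0, 0.5, 4, 12, 24 and 48 h was 2.31, 3.76, 1.43, 3.00, 2.97 and 2.51, in that order. It passed 2-fold in 58, 85, 23, 76, 68 and 66 members at those times, and 10-fold in 10, 6, 2, 21, 11 and 6. Of the next 100 genes by mean, 50, 81, 12, 69, 50 and 67 passed 2-fold. In the same genes, 10-fold was passed in 2, 3, 2, 14, 8 and 4. Over the tested genes, many of them at low levels, 2-fold was passed in 19.3%, 32.8%, 5.56%, 33.2%, 28.5% and 24.8%. Ratios at 0 and 4 h come from 2 libraries and are not comparable with those from 3. In 9 members the ratio passed 100 at some time, led by rank 4 with 16096 at 24 h, rank 65 with 6457 at 12 h and rank 11 with 2755 at 0.5 h. At the other end, 22 members stayed under 4-fold at every time and 8 under 3-fold, these being ranks 17, 21, 29, 36, 59, 60, 75 and 89.

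**Figure D5:**
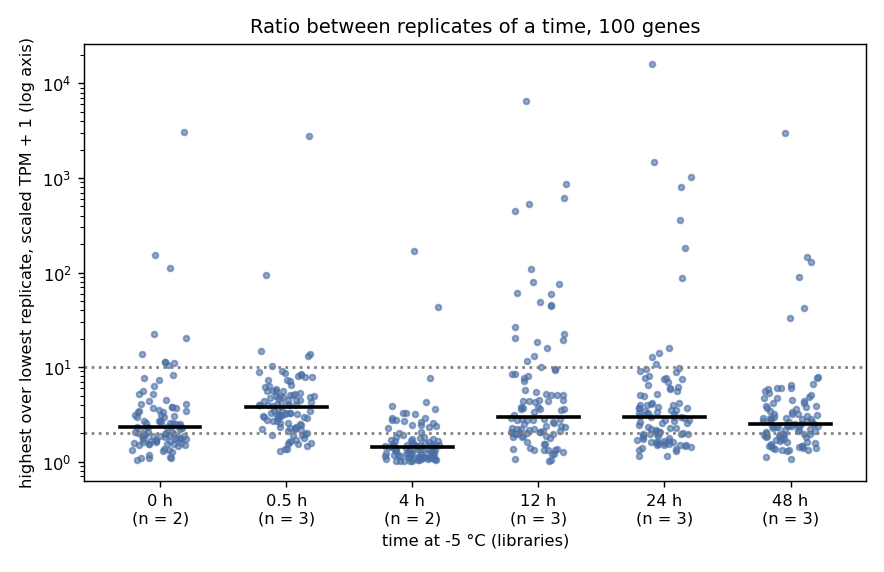
Ratio of the highest to the lowest replicate of a time (scaled TPM + 1, log axis, y) for each of the 100 genes, by time at -5 °C (x), with the median as a bar and dotted lines at 2- and 10-fold. The medians run from 1.43 at 4 h (2 libraries) to 3.76 at 0.5 h (3 libraries), and single genes pass 1000-fold at 5 of the 6 times.

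Rank 11 was the gene with the second largest spread between replicates, with an SD of 4.39 on the log2 scale. It had 37548 and 1686 scaled TPM at 0 h, 3.23, 12.3 and 11644 at 0.5 h, 5.14 and 7.78 at 4 h, 7.40, 4.27 and 2766 at 12 h, 14.3, 2232 and 15600 at 24 h, and 1765, 405 and 474 at 48 h. Both 4 h libraries were low, and at 0.5, 12 and 24 h low and high libraries stood side by side. The set of values deposited under both 0 h and 4 h was high, at 5957 scaled TPM. For 48 h against 0 h the log2 fold change was -4.15 (SE 2.70, edgeR adjusted p = 0.668).

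Rank 65 was on in 4 libraries and off in the other 12. It had 0.459 and 4453 scaled TPM at 0 h, 0.201, 3.27 and 0 at 0.5 h, 4878 and 5495 at 4 h, 6456, 0 and 0.428 at 12 h, 0.576, 0.317 and 0 at 24 h, and 0.596, 0.283 and 0.237 at 48 h. Both 4 h libraries were on, 0 and 12 h were divided, and the set of values deposited under both 0 h and 4 h was off, at 0.295. The 12 low libraries held between 0 and 18.01 estimated reads and the 4 high ones between 15398 and 30975. Over all times its edgeR adjusted p was 0.0853.

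Rank 58 had 8.71 and 1505 scaled TPM at 0 h, 585, 5.16 and 19.5 at 0.5 h, 2142 and 1383 at 4 h, 2452, 2486 and 1343 at 12 h, 9109, 1577 and 5.23 at 24 h, and 5.21, 2.93 and 7.70 at 48 h. Both 4 h libraries and all at 12 h were high and all at 48 h were low, while 0, 0.5 and 24 h were divided. The set of values deposited under both 0 h and 4 h was low, at 4.21 scaled TPM. At 48 h against 0 h the log2 fold change was -6.60 (SE 2.16, edgeR adjusted p = 0.331). Rank 27 completed the 5 members of widest spread, with 25.2 scaled TPM in its lowest library, at 24 h, and 10672 in its highest, at 48 h.

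Rank 75 had the smallest spread between replicates, with an SD of 0.403 on the log2 scale. It had 1750 and 841 scaled TPM at 0 h, 1054, 796 and 1236 at 0.5 h, 1268 and 1231 at 4 h, 1419, 786 and 1076 at 12 h, 842, 1137 and 1654 at 24 h, and 717, 723 and 648 at 48 h. All 3 libraries at 48 h lay below every other library, and the other times overlapped. At 48 h against 0 h the log2 fold change was -0.98 (SE 0.46, edgeR adjusted p = 0.493). Ranks 17, 60, 21 and 59 followed with SDs of 0.414, 0.424, 0.484 and 0.541, and ranks 21 and 59 share a component.

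Members also varied together across libraries. Among the 4950 pairs of members, the Pearson correlation of log2 levels over the 16 libraries had a median of 0.226, and 53 pairs were above 0.9. Points of such a correlation share a library, its depth and its scaling. Pairs above 0.9 joined 38 members into 11 groups, the largest of 9 genes from 7 components (ranks 13, 25, 34, 49, 64, 79, 80, 93 and 97). A gene joined a group through any 1 such pair, so other pairs can be lower, down to r = 0.711 in the largest group. Summed, these 9 genes had 4860 and 2633 scaled TPM at 0 h, 2623, 2672 and 5595 at 0.5 h, 52578 and 18921 at 4 h, 46797, 34583 and 3057 at 12 h, 19306, 8718 and 3725 at 24 h, and 19970, 8844 and 8420 at 48 h. In 4 h replicate 2 and in 12 h replicates 1 and 2 the sum was above that of every other library, while 4 h replicate 3 lay beside the highest 24 and 48 h libraries and 12 h replicate 3 lay within the range of 0 and 0.5 h. The set of values deposited under both 0 h and 4 h was above both 0 h libraries in each of the 9 genes.

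A second group held 8 genes of 8 components (ranks 16, 31, 33, 40, 42, 44, 95 and 99), with pairs down to r = 0.778. Its sum was 20074 and 11578 scaled TPM at 0 h, 10702, 7742 and 42082 at 0.5 h, 8593 and 7385 at 4 h, 15208, 14283 and 15509 at 12 h, 24769, 13335 and 11099 at 24 h, and 19127, 3716 and 19017 at 48 h. Its highest library was 0.5 h replicate 3 and its lowest 48 h replicate 2, with no time wholly above or below all others. By the same measure the members most like rank 1 were ranks 94 and 54, with r = 0.784 and 0.674. Rank 2 was most like rank 90 (r = 0.765), and rank 3 most like rank 37 (r = 0.836). Rank 74 was most like ranks 78, 63 and 91, with r = 0.891, 0.886 and 0.881. For ranks 4 and 12 the highest correlations with any other member were 0.376 and 0.564.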

How the data were processed

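Libraries of polyadenylated leaf RNA were made with an MGIEasy kit from 2 µg of total RNA and sequenced by BGI-seq, per the labels' protocols. Per the submitters' processing notes, Trimmomatic 0.36 trimmed the reads and FastQC was used. No aligner or counter is named here, both being not given in the sources used here. Estimated counts (expected counts) per assembled gene, unscaled between libraries, were deposited by the authors, with a second table of a signal scaled by length and library. That signal is called scaled TPM because of its column sums. Each sum times a TMM factor was within 99.0% to 102.3% of the total that TPM has by definition. The factor was recomputed from the same signal, set to an equal total in every library, and not from the counts. Columns were matched to samples by title, and 0 columns were left unmatched. All 153 pairs of columns were compared, and 1 pair, 0 h replicate 1 and 4 h replicate 1, was identical in all 214531 rows of both tables.

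Counts were rounded and tested with edgeR 4.0.16 in R 4.3.3 (filterByExpr, TMM, quasi-likelihood F test, 1 mean per time, no covariate, Benjamini-Hochberg adjustment over 68030 genes, called under 0.05). The fit had 10 residual degrees of freedom, and its common biological coefficient of variation was 69.3%. An SE beside a log2 fold change is back-calculated from the F statistic. Log fold changes of genes at or near 0 in one group depend on the prior count. Alternatives were library size alone or RLE in place of TMM, DESeq2 1.42.0, limma 3.58.1 on log2 of the scaled value + 1 or + 0.1, a filter on low counts left out or set to 1 CPM in 3 libraries, a replicate block, fits of only the times compared, other uses of the identical columns and leaving out each library. The edgeR contrast of 48 h against 0 h was tried on counts simulated from the fitted model, with changes set in known genes. The test over all times and the other tools were not tried in this way.

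The members and lists were chosen with earlier results of these data known. Members named were the 10 highest, those called over all times, the 5 with the largest and the 5 with the smallest spread between replicates, and those at the edge of the list. Identifiers were to be printed for members called in a single contrast, of which there were 0.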

Additional observations from a re-analysis of the deposited data

Results flagged for a closer look

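In 7 members all libraries of one time lay above both 0 h libraries and all libraries of another lay below both, as in 5.12% of the 68030 genes tested, so the 7 are near that share. The difference between those times was not tested. In 6 of them the 4 h libraries were above and the 48 h libraries below, as in 0.85% of the genes tested. These 6 genes come from 4 components. The set of values deposited under both 0 h and 4 h is not counted. In ranks 19, 62, 66 and 89 it was at 2030, 674, 396 and 320 scaled TPM, below both 0 h libraries. In rank 23 it was at 2392, above both 0 h libraries and below both 4 h libraries. In rank 32 it was at 2285, above both 0 h libraries and above 4 h replicate 3. Its place at 0 h would end the order of rank 32. Rank 19 averaged 3499 scaled TPM at 4 h and 1393 at 48 h, against 2375 at 0 h. Rank 23 averaged 2999 at 4 h and 1207 at 48 h, against 2177 at 0 h. Rank 32, of the same component as rank 23, averaged 2299 at 4 h and 1009 at 48 h, against 1777 at 0 h. Rank 62 averaged 2896 at 4 h and 618.2 at 48 h, against 1701 at 0 h, and its 0.5 h libraries were below as well. Rank 66, of the same component as rank 62, averaged 2632 at 4 h and 552 at 48 h, against 1369 at 0 h. Rank 89 averaged 1841 at 4 h and 500.4 at 48 h, against 1272 at 0 h, with 12 h also below. Ranks 19, 23 and 32 also had pairwise correlations over the 16 libraries of at least 0.937. Rank 91 averaged 143.6 scaled TPM at 0.5 h, below, and 1816 at 24 h, above, against 403.7 at 0 h, with 4 h also below and 48 h above.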

How the results depend on the processing

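Over all times, 3 members were called. The count was 18 with DESeq2, 5 with limma at either pseudocount (+ 1 or + 0.1), 42 with no filter, 5 with all 18 columns, 5 with the identical values kept at 0 h, and 2 to 5 when 1 library was left out, with 5 reached without 12 h replicate 3. With no filter, 7.58% of 202727 genes were called, so the shares of members and of all genes went up together. DESeq2, limma, no filter and all 18 columns called the same 3 genes among theirs. Rank 91 was lost with library size alone (edgeR adjusted p = 0.0593). No member was called in a single contrast. Library size alone, all 18 columns and limma at either pseudocount each called 1 member in the contrast of 0.5 h with 0 h and 1 in that of 4 h with 0.5 h. DESeq2 called 2 and 8 there. No filter called 5 and 21. The identical values at 0 h gave 1 at 0.5 h against 0 h, and at 4 h gave 1 at 4 h against 0.5 h. Leaving out 1 library gave 0 to 1 at 0.5 h against 0 h, the 1 being without 12 h replicate 3. Fits of only the times compared gave 1 member for 4 h against 0.5 h, and 1 for 48 h against 24 h. Against 0 h, DESeq2 called 1 member at 4 h and 5 each at 12, 24 and 48 h, and no filter called 16, 14, 9 and 11 at those times. At 24 and at 48 h against 0 h, limma at either pseudocount, all 18 columns and the identical values at 0 h each called 1. At 12 h against 4 h, DESeq2 called 2, no filter 12, and limma at either pseudocount and all 18 columns 1 each. At 24 h against 12 h no filter called 9, and at 48 h against 24 h DESeq2 called 5 and no filter 9. Among these alternatives, the share of all genes is given only for DESeq2, limma (+ 1) and no filter over all times. The other counts have no such share beside them and are not read as a result about the members. The cause of the differences between settings was not tested.

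For the 22 members described singly, 615 alternative values were computed. Of these, 560 kept direction and side of the threshold, 20 passed it and 35 changed sign, all 35 in genes not called. At 48 h against 0 h, the log2 fold change of rank 6 was -0.14, and became 0.33 with all 18 columns and 0.32 with the identical values at 0 h. Rank 10, at -0.23, became 0.022 with library size alone and 0.72 with limma at either pseudocount. Rank 21, at 0.014, became -0.012 with RLE or DESeq2 and -0.19 with limma at either pseudocount. Rank 27, at 0.66, became -1.12 with limma at either pseudocount. Rank 59, at -0.35, became 0.023 with all 18 columns and 0.0071 with the identical values at 0 h, and rank 60, at -0.25, became 0.032 and 0.021. Leaving out 1 library moved the log2 fold change at 48 h against 0 h across 0 for rank 1 (-0.14 to 1.49), rank 2 (-0.97 to 0.51), rank 3 (-0.64 to 0.18), rank 5 (-1.56 to 0.11), rank 6 (-0.61 to 0.30), rank 7 (-2.22 to 0.032), rank 8 (-0.48 to 0.0026), rank 10 (-0.94 to 1.53), rank 17 (-0.95 to 0.15), rank 21 (-0.21 to 0.26), rank 27 (-2.73 to 2.73), rank 59 (-0.74 to 0.32), rank 60 (-0.64 to 0.19) and rank 65 (-13.2 to 0.029, the last without 0 h replicate 3). The permutation p for the share of the 100 genes was 0.469 to 0.972 over its alternatives, 0.469 being without 24 h replicate 1, and the median spread between replicates was 0.886 to 1.008.

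No pairing by replicate number was seen. Deviations from the time means had a median correlation of -0.043 over the 36 pairs with the same number, 6 of which were above 0.1. Over 70 pairs with different numbers it was 0.021. At 0 and 4 h only 2 libraries were left, whose deviations are exact opposites by construction, and the pairs reuse the same libraries. These medians therefore cannot settle whether the samples were paired. With the replicate number as a block, 2 members were called over all times (ranks 12 and 74), rank 91 had an edgeR adjusted p of 0.0652, and the log2 fold changes of ranks 21 and 27 at 48 h against 0 h were -0.079 and -0.0064. Each time had 2 or 3 libraries, and the biological coefficient of variation had a median of 59.7% over the members, which limits the precision of every fold change given.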
